A study of Saccharomyces cerevisiae with 19 samples.

Results

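The ribosomal DNA (rDNA) of budding yeast, Saccharomyces cerevisiae, and the single-copy DNA on both sides of it were covered by 246 of the 41480 chromosomal probes of a tiling array. The probes were chosen by position alone, as those on chromosome 12 with a midpoint from 410000 to 510000, in the coordinates of the deposited files. They were split into 6 probes in an rDNA interval of 18.5 kb, 158 in the left flank and 82 in the right flank. Of the 246, 214 (87.0%) gave a value on all 19 arrays: 4 in the rDNA, 137 on the left and 73 on the right.

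The rDNA is a tandem array of repeats, each with a long transcript that is cut into the 18S, 5.8S and 25S rRNAs, a 5S rRNA gene and nontranscribed spacers on either side of the 5S gene. Silencing in the repeats depends on the deacetylase Sir2, which acts there in the RENT complex with Net1 and Cdc14, whereas Sir3 is the structural silencing protein that spreads with Sir2 and Sir4 at telomeres and at the silent mating loci HML and HMR. Sir3 prefers nucleosomes whose histone H3 is not methylated by Dot1. A tRNA gene in the unique DNA just left of the repeats has been described as a border of rDNA silencing.

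The series measured Sir3 by chromatin immunoprecipitation on 2-colour arrays (ChIP-chip), with anti-Sir3 DNA in Cy5 over whole cell extract DNA in Cy3, in cells growing exponentially in YPD, a rich glucose medium. Its design asked how Sir3 spreads at graded SIR3 levels, with or without extra Sir2, with the point mutant Sir3-A2Q, and after release from nicotinamide (NAM), an inhibitor of Sir2. Of the 11 groups, 8 had 2 arrays and 3 had 1. The sources used here do not say that the arrays of a group came from separate cultures, so the spread between them may be technical.

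The pGPD-SIR2 pGPD-SIR3 strain (yAT1668, 2 arrays) combined sir2::GPD-SIR2(KanMX) with sir3::GPD-SIR3(NAT) in cells with rap1::RAP1-GFP(LEU2) and RDN1::ADE2, and the pGPD-SIR2 strain (yAT1667, 1 array) had the same alleles without the SIR3 one. RDN1::ADE2 places a marker gene in the rDNA itself, and no other strain carried it, so its effect and that of SIR2 overexpression cannot be told apart in comparisons with strains that lack both. The pGPD-SIR3-A2Q strain (yAT1256, 2 arrays) carried sir3::GPD-sir3-A2Q(NAT), and the pGPD-SIR3 strain (yAT1254, 2 arrays) sir3::GPD-SIR3(NAT), both in the WT background described last. That yAT1254 strain was also released from 5 mM NAM into fresh YPD for 8 h (2 arrays), as was its derivative with dot1::KANMx, yAT3183 (2 arrays). In another background, with ade2-1::ADE2, hml{delta}::HPH and rap1::RAP1-GFP(LEU2), SIR3 was driven by pADH (yAT2627, 2 arrays), pTEF (yAT2629, 2 arrays) or pGPD (yAT2554, 1 array). A further pGPD-SIR3 strain, yAT2476 (1 array), had sir3::GPD-SIR3(NAT) and rap1::GFP-RAP1(LEU2) alone. WT was yAT191 (2 arrays), with ade2-1::ADE2, ppr1{delta}::HIS3, rap1::GFP-RAP1(LEU2) and, at adh4, the construct URA3-4xUASG-(C1-3A)n. Every strain thus carried a GFP fusion of the telomere protein Rap1, WT included. Apart from yAT1254, yAT1256 and yAT3183, the strains also differed from WT in background. In their comparisons with WT, background and the changes to SIR genes cannot be told apart.

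All levels below are log2 of the deposited ratio minus the median of the same array over all chromosomal probes, so that 0 is the genome's typical level and 1 is 2-fold above it. Between 40247 and 41270 probes per array had a usable ratio. The median absolute deviation, scaled to a standard deviation, over probes far from chromosome ends lay from 0.267 to 0.392 on 17 arrays and was 0.541 and 0.552 on the 2 dot1 arrays. Pairs of arrays of 1 group correlated over the 100 kb at 0.699 (pGPD-SIR3-A2Q) to 0.966 (NAM release). Slides were inferred from numbers shared by file names, which put 12 arrays on 5 slides, and 7 arrays deposited later have no such number. Tests used limma with 1 mean per group over all 19 arrays, on 2.5 kb windows (4562 in the genome, 25 in the 100 kb) and on single probes (36515 and 214), and a feature was called at a Benjamini-Hochberg adjusted p under 0.05 within its comparison. The 3 groups of 1 array were assumed to vary like the others. Deposit and slide were each also fitted as a block, a shift common to all groups, with the later arrays as 1 slide. yAT2476, alone on its slide, was put with slide 1, so its slide-blocked values rest on that choice.

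The 6 rDNA probes sample little of the repeat. By neighbouring genes of the R64 annotation, 2 lie at the left edge of the array of repeats (451118 to 451177 and 451373 to 451432), 1 lies at the 5S rRNA gene RDN5-1 (459765 to 459824), and 3 lie in the spacer after it (459944 to 460003, 460136 to 460195 and 460534 to 460588). No probe fell in the 18S, 5.8S or 25S sequences, in the spacer before the 5S gene or in the ASP3 asparaginase genes. Right of the repeats, before the probes near YLR162W, lay only 2 probes, beside YLR157W-D and in YLR157W-E, the second of which lies next to the further 5S copy RDN5-4. A probe in a repeat reports the mean over all copies, as a ratio to input DNA.

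In WT cells the spacer was among the strongest sites of the region. The 5S probe read 4.85 and 4.97 on the WT arrays, and the spacer probe at 460534 to 460588 read 4.04 and 4.60. The mean of these 2 probes, 4.62 ± 0.24 (SD, n = 2), lay above the 2.35 ± 0.05 of the probes within 10 kb of chromosome ends and below the 7.24 ± 0.31 of the 3 probes over HMR on the same arrays. The 2 probes were picked after the values were seen, while the value for chromosome ends is a broad mean over 495 probes. The levels are therefore not like for like. At the left edge of the repeats the 2 probes averaged 2.29 ± 0.43. The signal continued into unique DNA: the 6 probes between the repeats and the tRNA gene YNCL0009C (449416 to 450873) averaged 1.61 on each WT array, and the 3 probes on the far side of that gene (447813 to 448594) averaged -0.52 and 0.41.

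**Figure D1:**
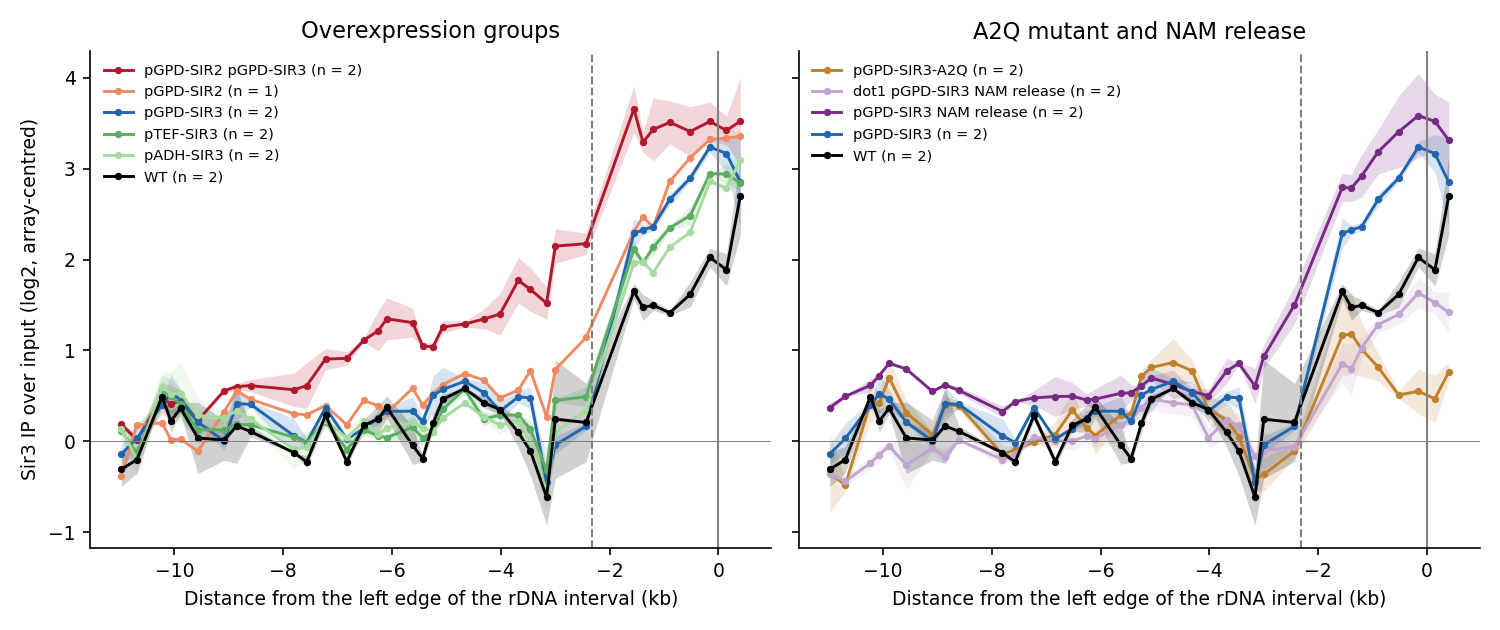
Centred log2 ratio of single probes (vertical axis) against distance in kb from the left edge of the rDNA interval (horizontal axis), as group means with a band over the range of both arrays. The left panel shows pGPD-SIR2 pGPD-SIR3, pGPD-SIR2, pGPD-SIR3, pTEF-SIR3 and pADH-SIR3 with WT. The right panel shows pGPD-SIR3-A2Q and the NAM release groups with pGPD-SIR3 and WT. The dashed line marks the tRNA gene and the solid line the edge. In pGPD-SIR2 pGPD-SIR3 cells the level left of the tRNA gene (1.79 and 2.11) stands above that of WT (-0.52 and 0.41).

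With SIR3 under pADH, pTEF or pGPD, the mean over the rDNA probes overlapped that of WT, while levels just outside the repeats lay above WT. Of these strains only pGPD-SIR3 (yAT1254) has the WT background. The mean of the 4 rDNA probes measured on all arrays was 3.83 and 3.43 in pADH-SIR3, 3.73 and 3.31 in pTEF-SIR3, and 4.04 and 3.33 in pGPD-SIR3 cells, against 3.22 and 3.69 in WT cells. These ranges overlap, and the differences of the means from WT were 0.18, 0.06 and 0.23. The single arrays of the other pGPD-SIR3 strains read 4.00 (yAT2554) and 3.05 (yAT2476), 1 above and 1 below both WT arrays. Over the same groups the probes within 10 kb of chromosome ends averaged 3.04 ± 0.19 in pADH-SIR3, 4.69 ± 0.74 in pTEF-SIR3 and 5.25 ± 0.25 in pGPD-SIR3 cells, all above the 2.35 ± 0.05 of WT cells.

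**Figure D2:**
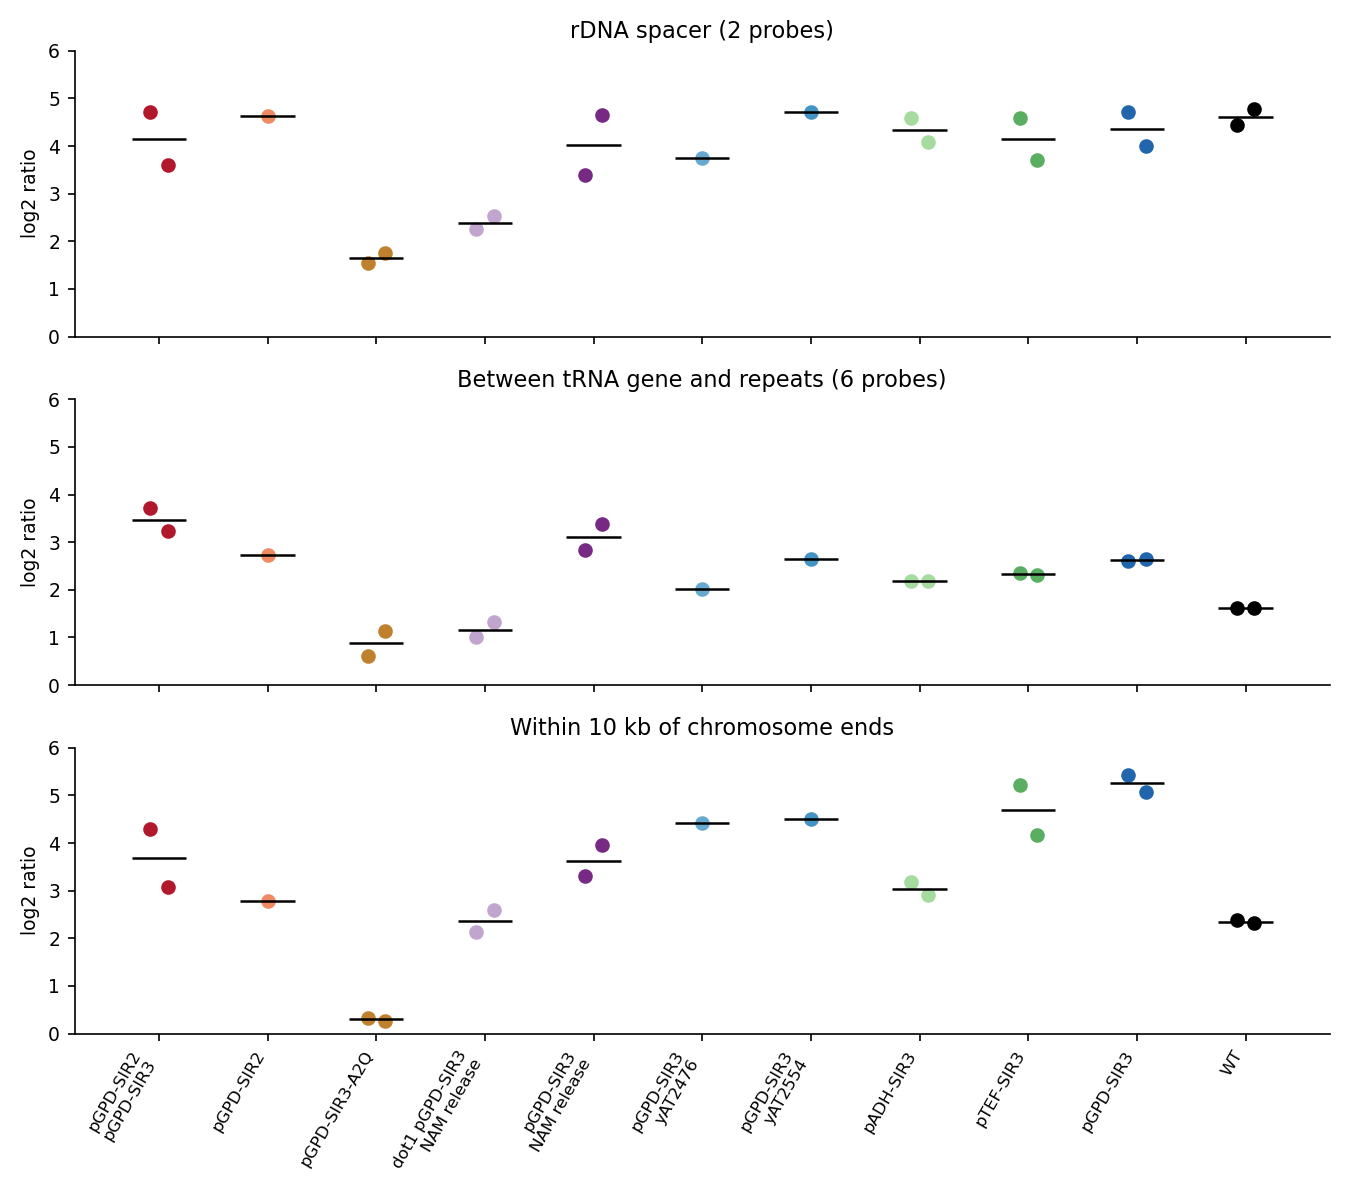
Mean centred log2 ratio per array (dots) and per group (bars, mean over arrays) for 3 sets of probes: the 2 probes at the 5S gene and in the spacer (top), the 6 probes between the tRNA gene and the repeats (middle) and the probes within 10 kb of chromosome ends (bottom), with WT rightmost. With SIR3 alone under pADH, pTEF or pGPD and no NAM, the arrays read 3.71 to 4.72 in the top row, against 4.45 and 4.79 in WT, and 2.02 to 2.65 in the middle row, against 1.61 on each WT array.

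Between the tRNA gene and the repeats the arrays with SIR3 alone under pADH, pTEF or pGPD, with no mutation in SIR3 and no NAM, read above both WT arrays. The 6 probes averaged 2.61 and 2.64 in pGPD-SIR3, 2.35 and 2.31 in pTEF-SIR3, and 2.19 and 2.18 in pADH-SIR3 cells, against 1.61 on each array of WT cells. No array of 1 of these groups reached the range of another, and the means were 2.02-fold (pGPD-SIR3), 1.65-fold (pTEF-SIR3) and 1.48-fold (pADH-SIR3) the WT level. The single arrays read 2.65 in yAT2554 and 2.02 in yAT2476, which is 2.05-fold and 1.33-fold the WT level. Although its promoter is also pGPD, yAT2476 lay below every pADH-SIR3 and pTEF-SIR3 array, so the levels had no single order by promoter. Where both groups shared a slide the differences were of the same size, 1.00 for pGPD-SIR3, 0.74 for pTEF-SIR3 and 1.04 for yAT2554, each minus the WT array of that slide.

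The window that spans this edge (450000 to 452500, with 3 probes of unique DNA and the 2 edge probes of the repeats) was called higher than WT in 3 of the 5 groups that overexpress SIR3 alone. The difference was 1.03 (SE 0.24, limma adjusted p = 0.0124, n = 2 and 2) for pGPD-SIR3, higher on both arrays than on either WT array. It was 0.78 (SE 0.24, limma adjusted p = 0.0409, n = 2 and 2) for pTEF-SIR3 and 1.06 (SE 0.29, limma adjusted p = 0.0442, n = 1 and 2) for yAT2554. The pGPD-SIR3 call was kept in 23 of 25 alternative settings and was lost without pGPD-SIR3 replicate 1 or WT replicate 1, while the pTEF-SIR3 and yAT2554 calls were kept in 16 and 11 of 25 and both lost with slide as a block.

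Counts over the 25 windows stayed near or below the genome. In pGPD-SIR3 minus WT 2 windows were called higher, where 10.9% of all windows were called. The second was 490000 to 492500, with RRT15 and MAS1, at 0.25, lost in 10 of 25 alternative settings, slide as a block (0.16, limma adjusted p = 0.512) and the first deposit alone among them. The other counts against WT were 1 of 25 in pTEF-SIR3 (16.8% of all windows called), 1 in yAT2554 (7.94%) and 2 in yAT2476 (14.9%), the last at STM1 and PCD1 (0.44) and at SEC10, RPS31 and UPS2 (0.55). The call at SEC10, RPS31 and UPS2 was lost in 13 of 25 settings, slide as a block among them, and that at STM1 and PCD1 in 2, without WT replicate 1 and in the first deposit alone. No window was called in pADH-SIR3 minus WT (1.4% of all windows) by limma, and 3 had an unadjusted p under 0.05. Between promoters in a shared background, pTEF-SIR3 minus pADH-SIR3 gave 0 windows (6.53% of all, 1 with an unadjusted p under 0.05). The comparison pGPD-SIR3 minus pTEF-SIR3 gave 1 (1.86% of all), over PEP3 at 0.38. That window was not called in 10 of 25 alternative settings, deposit and slide as blocks among them. The pGPD-SIR3 and pTEF-SIR3 strains differ in background as well, so promoter and background cannot be told apart there.

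Most rDNA probes tested did not share this rise in pGPD-SIR3 and pTEF-SIR3 cells. The inner edge probe (451373 to 451432) differed from WT by 0.15 and 0.14. The 5S probe differed by -0.33 and -0.85, and the spacer probe at 460534 to 460588 by -0.19 and -0.10. Of the 4 rDNA probes tested, only the outer edge probe, at 451118 to 451177, was called in these groups. It read 3.37 and 2.96 in pGPD-SIR3 and 2.83 and 3.05 in pTEF-SIR3 cells, against 1.71 and 2.06 in WT cells, with no overlap. The differences from WT were 1.28 (SE 0.23, limma adjusted p = 0.00213) and 1.05 (SE 0.23, limma adjusted p = 0.00822), and the second was lost without pTEF-SIR3 replicate 2 (adjusted p = 0.088) and with slide as a block (0.90, adjusted p = 0.0616). In pADH-SIR3 cells the probe read 2.84 and 2.74, a difference of 0.90 that did not pass the threshold (limma adjusted p = 0.0689). Neighbouring probes called higher than WT ran unbroken over 6 tested probes in pGPD-SIR3 cells (449583 to 451177) and over 4 in pTEF-SIR3 cells (450076 to 451177), and in neither did the run pass the tRNA gene. Single probes called over the 100 kb numbered 9 of 214 higher and 0 lower than WT in pGPD-SIR3 (8.08% of all probes called), 4 and 3 in pTEF-SIR3 (10.3%), 4 and 1 in yAT2554 (5.6%) and 9 and 5 in yAT2476 (11.1%). In pADH-SIR3 limma called 0 (1.78% of all probes), and 20 had an unadjusted p under 0.05. In pGPD-SIR3 minus pTEF-SIR3 it called 0 (0.378%, 27 with an unadjusted p under 0.05), and in pTEF-SIR3 minus pADH-SIR3 it called 1 (4.01%), in YLR162W, at -0.87 (SE 0.19, limma adjusted p = 0.0181), lost with slide as a block. Slide as a block gave 3 higher and 0 lower in pGPD-SIR3, 14 and 11 in pTEF-SIR3, 18 and 8 in yAT2554 and 16 and 22 in yAT2476, and deposit as a block gave 1 lower in pTEF-SIR3. WT replicate 1 bears on these probe counts: without it 34 probes were higher and 13 lower in pGPD-SIR3, 16 and 18 in pTEF-SIR3, 13 and 5 in yAT2554, 17 and 15 in yAT2476 and 10 and 13 in pADH-SIR3. Without WT replicate 2 the higher counts were 7 in pTEF-SIR3 and 7 in yAT2554, the lower counts 0 in pTEF-SIR3 and 13 in yAT2476. Without pGPD-SIR3 replicate 2 the 9 became 4, and without pTEF-SIR3 replicate 1 or 2 the 4 became 2 or 1.

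In pGPD-SIR2 cells SIR3 itself is not overexpressed. The single pGPD-SIR2 array averaged 3.99 over the 4 rDNA probes, against 3.22 and 3.69 in WT cells. It stood above WT at the left edge of the repeats, where the 2 probes averaged 3.35, against 2.29 in WT cells. At the 5S and spacer probes inside the repeats it averaged 4.63, against 4.62 in WT cells. The array read 2.74 between the tRNA gene and the repeats, 2.18-fold the WT level. The edge window was 1.27 above WT (SE 0.29, limma adjusted p = 0.0312, n = 1 and 2), was the only one of 25 called (4.71% of all windows) and was lost in 4 of 25 alternative settings, slide as a block among them. Of single probes, 5 of 214 were higher and 0 lower than WT (4.93% of all probes called), which became 11 and 15 without WT replicate 1 and 10 and 6 without WT replicate 2. With slide as a block 0 were called. Left of the tRNA gene the array read 0.73, above both WT arrays, and within 10 kb of chromosome ends it read 2.78, against 2.35 ± 0.05 in WT cells.

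With both SIR2 and SIR3 overexpressed, Sir3 was found well beyond the tRNA gene on the left and around MAS1 on the right. The 3 probes left of the tRNA gene averaged 2.11 and 1.79 in pGPD-SIR2 pGPD-SIR3 cells, against 0.73 in pGPD-SIR2, -0.14 and -0.07 in pGPD-SIR3 and -0.52 and 0.41 in WT cells. Both arrays lay above every array of the other groups, and the mean was 4.00-fold that of WT and 4.16-fold that of pGPD-SIR3. ACS2, which encodes an acetyl-CoA synthetase and follows RNH203 (a subunit of RNase H2) on this side, averaged 1.47 and 1.24 over 8 probes, against 0.60 in pGPD-SIR2, 0.36 and 0.59 in pGPD-SIR3 and 0.27 and 0.19 in WT cells. In the repeats, by contrast, the arrays read 4.25 and 3.37, which overlaps the WT arrays (3.22 and 3.69).

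**Figure D3:**
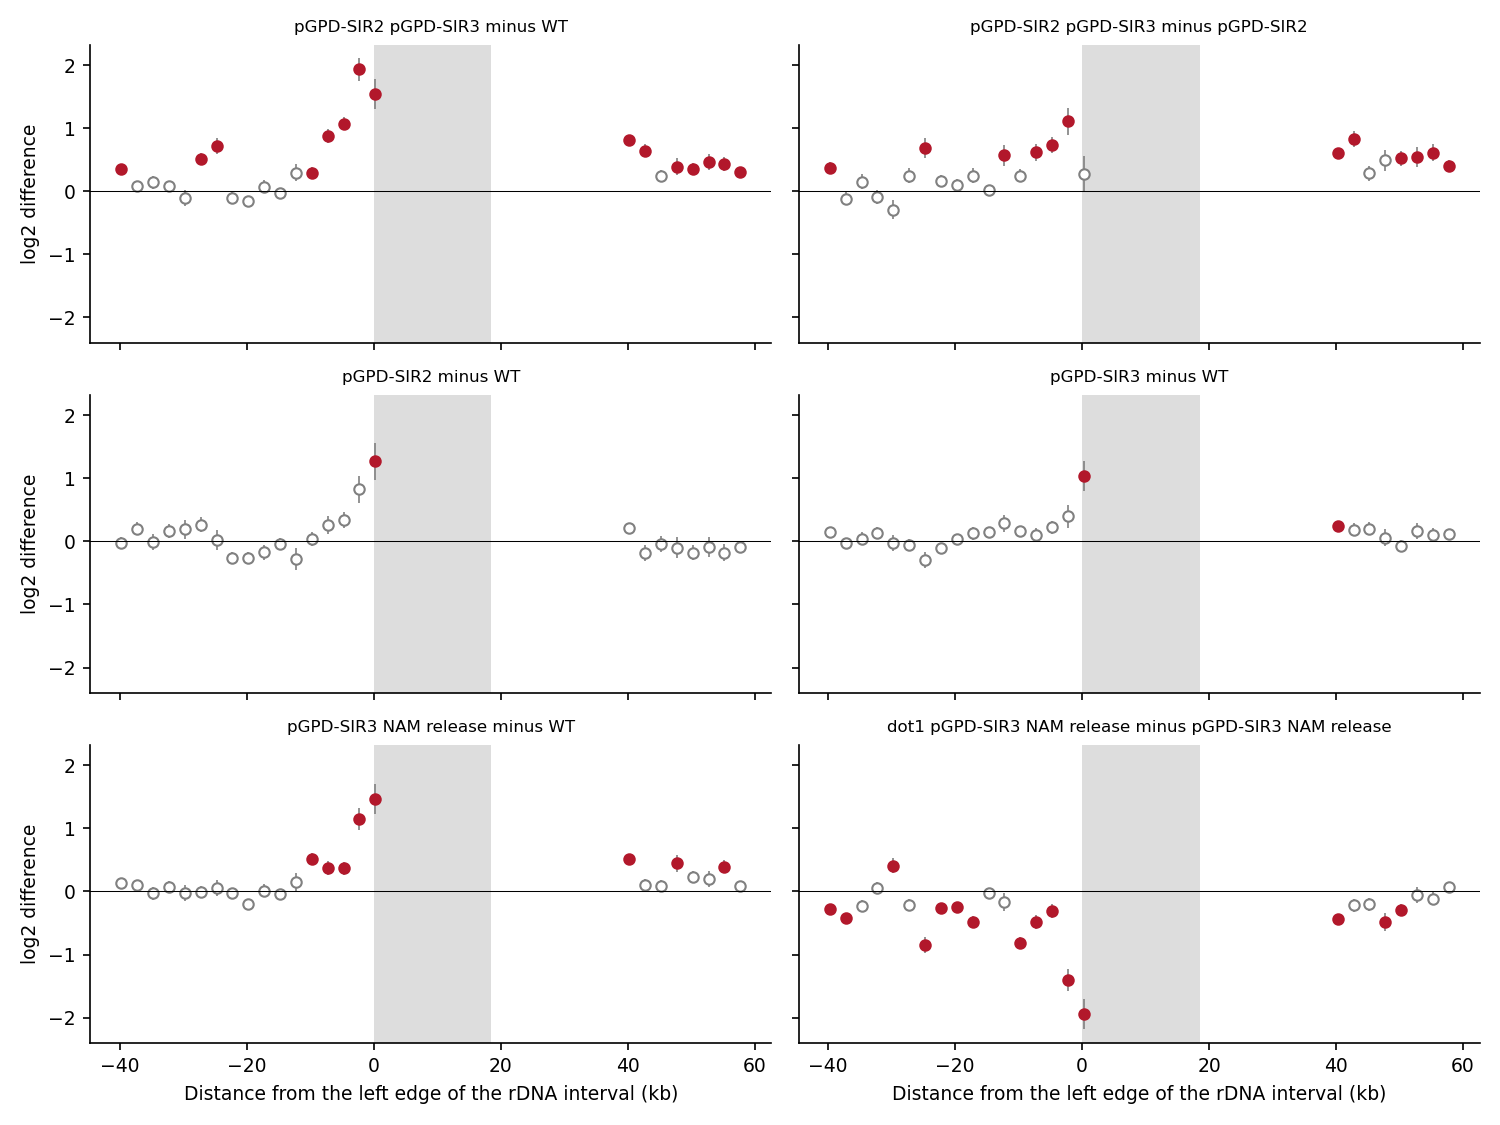
Difference of group means in centred log2 ratio (vertical axis, with standard error) for the 25 windows of 2.5 kb along the 100 kb (horizontal axis, distance in kb) in 6 comparisons; filled points have a limma adjusted p under 0.05 and the grey band is the rDNA interval. pGPD-SIR2 pGPD-SIR3 minus WT has 15 filled points, all above 0, and dot1 minus NAM release has 14 below 0 and 1 above.

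In pGPD-SIR2 pGPD-SIR3 minus WT 15 of 25 windows were called higher and 0 lower, against 31.1% of all windows called, 22% higher and 9.07% lower. The median difference was 0.35 over the 25 windows and 0.01 over all windows. The largest were the window with RNH203 and the tRNA gene (447500 to 450000), at 1.93 (SE 0.18, limma adjusted p = 8.35e-06, n = 2 and 2), the edge window at 1.55 (SE 0.24, limma adjusted p = 0.00037) and the ACS2 window (445000 to 447500) at 1.07 (SE 0.11, limma adjusted p = 1.4e-05). These 3 calls were kept in all 25 alternative settings run, and on the slide shared with WT the level left of the tRNA gene differed by 1.70. Without pGPD-SIR2 pGPD-SIR3 replicate 2 the count fell to 9 of 25, with 2 in place of 7 on the right, and without WT replicate 2 the right side had 3.

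Single probes show how far the domain ran. Called probes were contiguous over 27 tested probes from 442372 to 451177, with differences from WT between 0.50 and 2.13, through the unnamed reading frame YLR152C, ACS2, RNH203 and the tRNA gene into the edge of the repeats. Against pGPD-SIR3 22 probes in a row were higher (443404 to 450134), and against yAT2476 23 (443747 to 450873). Over all probes of the 100 kb 70 of 214 were higher than WT, 39 on the left, 30 on the right and 1 in the rDNA, where 18% of all probes were called and 14% called higher. The 30 became 14 without pGPD-SIR2 pGPD-SIR3 replicate 2. Against pGPD-SIR2 45 were higher and 1 lower (8.95% of all probes called), against pGPD-SIR3 48 and 2 (11.3%) and against yAT2476 44 and 0 (5.71%). Of these, the 48 became 24 without pGPD-SIR3 replicate 1 and 30 without pGPD-SIR2 pGPD-SIR3 replicate 1, and the 45 became 20 without that array and 28 without replicate 2. The 44 became 28 without pGPD-SIR2 pGPD-SIR3 replicate 1. With slide as a block the 48 became 18 and the 45 became 6. Farther out on the left, 10 to 20 kb from the repeats, the level was 0.03 ± 0.00 in pGPD-SIR2 pGPD-SIR3 and -0.06 ± 0.11 in WT cells (SD, n = 2 each). From 20 to 41 kb it was 0.18 ± 0.02 and -0.01 ± 0.04 on the left and 0.55 ± 0.08 and 0.11 ± 0.08 on the right, and on both sides the pGPD-SIR2 pGPD-SIR3 arrays lay above every other array.

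Compared with the strain that overexpresses SIR2 alone, which shares RDN1::ADE2, 12 of 25 windows were higher and 0 lower (15.9% of all windows called, 12.9% higher and 2.96% lower). The window with RNH203 and the tRNA gene differed by 1.11 (SE 0.22, limma adjusted p = 0.00442, n = 2 and 1), that with MAS1, SHH4 and PUS5 (492500 to 495000) by 0.83 (SE 0.13, limma adjusted p = 0.00114) and the ACS2 window by 0.73 (SE 0.13, limma adjusted p = 0.00249). All 3 calls were lost with slide as a block, where 2 windows of the 25 were called, and without pGPD-SIR2 pGPD-SIR3 replicate 2 the count was 7. The edge window differed by 0.28 and was not called (limma adjusted p = 0.584).

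Against pGPD-SIR3 cells 9 windows were higher and 0 lower (25% of all windows called, 14.7% higher and 10.3% lower). Beside the window with RNH203 and the tRNA gene (1.54, SE 0.18, limma adjusted p = 0.000123) and the ACS2 window (0.85), the third was that of PUT1 and DPH6 (425000 to 427500), at 1.01 (SE 0.13, limma adjusted p = 0.000213). The first and the last were lost with slide as a block, and the 4 calls on the right became 1 without pGPD-SIR2 pGPD-SIR3 replicate 2 or without pGPD-SIR3 replicate 1. Against yAT2476, 10 of 25 windows were higher (13% of all windows called), led by the same window at 1.75 (SE 0.22, limma adjusted p = 0.000414, n = 2 and 1) and by ACS2 at 1.30. The comparisons of these paragraphs share the pGPD-SIR2 pGPD-SIR3 arrays.

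Right of the repeats the strongest response lay at a single probe in YLR157W-E, beside the 5S copy RDN5-4 (481877 to 481930). It read 4.03 and 2.87 in pGPD-SIR2 pGPD-SIR3 cells, against 1.01 in pGPD-SIR2, 0.82 and 0.70 in pGPD-SIR3 and 0.64 and 1.66 in WT cells. Both arrays stood clear of all others, of which the highest was WT replicate 2. In each group with 1 array on the inferred slide 2 and 1 elsewhere, the slide 2 array read higher. The values were 4.03 against 2.87 in pGPD-SIR2 pGPD-SIR3, 1.66 against 0.64 in WT and 1.09 against 0.68 in pTEF-SIR3 cells. The difference was 2.30 from WT (SE 0.33, limma adjusted p = 0.000185) and 2.68 from pGPD-SIR3 (SE 0.33, limma adjusted p = 0.0002). It was 2.43 from pGPD-SIR2 (SE 0.40, limma adjusted p = 0.0019, n = 2 and 1).

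Beyond the repeats on the right, MAS1, a subunit of the mitochondrial processing peptidase, and its surroundings (16 probes, 490922 to 494853) averaged 0.71 and 0.76 in pGPD-SIR2 pGPD-SIR3 cells, against -0.03 in pGPD-SIR2, 0.17 and 0.30 in pGPD-SIR3 and 0.03 and -0.01 in WT cells. Both arrays were above all others, and the mean was 1.66-fold that of WT. The probe in YLR162W, which lies next to the 5S copy RDN5-6 (489680 to 489730), did not follow: it read 2.37 and 2.38, against 2.26 and 2.50 in WT cells, and differed by -0.01 (limma adjusted p = 0.987).

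The flanks hold 23 genes with at least 2 probes well inside, 15 on the left and 8 on the right, and a gene-level fit was added after the windows had been seen. In pGPD-SIR2 pGPD-SIR3 minus WT 9 of them were higher and 0 lower, where 19.4% of all genes were called. ACS2 differed by 1.00 (SE 0.12, limma adjusted p = 7.2e-05), YLR152C by 0.84 and IDP2, the cytosolic isocitrate dehydrogenase, by 0.84 (SE 0.17, limma adjusted p = 0.00507). The others were PUT1 (proline oxidase), MAS1, PCD1 (a nudix pyrophosphatase), UPS2 (mitochondrial lipid transfer), PDC5 (a pyruvate decarboxylase) and TAG1, at 0.82 down to 0.39. Against pGPD-SIR2 7 genes were higher (10.7% of all genes called), and against pGPD-SIR3 5 (14.5%): PUT1, ACS2, YLR152C, UPS2 and MAS1, by 1.04 to 0.38. Against yAT2476 7 were higher (9.37%), among them SEC10 of the exocyst (0.55) and PUS5 (0.64). With SIR3 alone or SIR2 alone overexpressed, limma called 0 of the 23 genes against WT in pADH-SIR3 (0.925% of all genes called, 0 with an unadjusted p under 0.05), pTEF-SIR3 (9.02%, 4), pGPD-SIR3 (7.76%, 2), yAT2554 (4.41%, 1) and pGPD-SIR2 (2.35%, 5). In yAT2476 1 was called (9.56%), the lysine methyltransferase gene RKM5, at -0.32 (limma adjusted p = 0.0459). In pTEF-SIR3 minus pADH-SIR3 0 were called (3.75% of all genes), as in pGPD-SIR3 minus pTEF-SIR3 (0.451%), where the background differs too.

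PUT1 lies on the left flank beyond STM1 and PEP3, apart from the run of probes next to the repeats. Its 3 probes averaged 1.18 and 0.94 in pGPD-SIR2 pGPD-SIR3 cells, against 0.21 in pGPD-SIR2, -0.04 and 0.09 in pGPD-SIR3 and 0.02 and 0.46 in WT cells. Both arrays exceeded all others. PEP3, ACF2, SLX4 and RKM5, which lie on either side, were not called in any of the comparisons with pGPD-SIR2, pGPD-SIR3 or WT, and RKM5 was 0.34 higher than in yAT2476 (limma adjusted p = 0.0344).

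After release from NAM, levels past the tRNA gene lay above those of untreated pGPD-SIR3 and of WT cells. The 3 probes left of it averaged 0.84 and 1.19 in NAM release cells, against -0.14 and -0.07 in pGPD-SIR3 cells and -0.52 and 0.41 in WT cells, with no overlap. Between the tRNA gene and the repeats the arrays read 2.84 and 3.39, against 2.61 and 2.64 in pGPD-SIR3 cells and 1.61 on each WT array. In the rDNA they read 3.22 and 4.21, a range that takes in the pGPD-SIR3 arrays (4.04 and 3.33) and the WT arrays (3.22 and 3.69).

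Against WT, 8 of 25 windows were higher and 0 lower in NAM release cells (28.4% of all windows called, 20.3% higher and 8.09% lower). The edge window differed by 1.47 (SE 0.24, limma adjusted p = 0.00103, n = 2 and 2) and that of RNH203 and the tRNA gene by 1.15 (SE 0.18, limma adjusted p = 0.000818), both kept in all 24 alternative settings. STM1 and PCD1 (440000 to 442500) differed by 0.52 (SE 0.09, limma adjusted p = 0.00154), lost with slide as a block. Without NAM release replicate 1 the count was 5, and without replicate 2 it was 4. Of single probes 39 of 214 were higher and 6 lower (17.1% of all probes called), and the 39 became 18 and 12 without the same arrays. The 6 became 0 and 2 without those arrays and 12 without WT replicate 1. With deposit as a block 20 were higher and 3 lower. Of the 23 flank genes 4 were higher and 1 lower (20.1% of all genes called): PCD1 (0.48), YLR152C (0.47), CBF5 (0.40) and MAS1 (0.37), and RKM5 (-0.48).

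Against the untreated pGPD-SIR3 strain, which is the same strain in the earlier deposit, 3 windows were higher (17% of all windows called). The window of RNH203 and the tRNA gene differed by 0.75 (SE 0.18, limma adjusted p = 0.0168), and within it the probe beside the tRNA gene (448536 to 448594) by 1.33 (SE 0.22, limma adjusted p = 0.00453). The other windows, at STM1 with PCD1 (0.36) and at RRT15 with MAS1 (0.27), were smaller. Of single probes 8 were higher and 2 lower (6.7% of all probes called), the 8 becoming 1 to 3 when an array of either group was left out and 18 without either WT array, and of flank genes UPS2 (0.53) and CBF5 (0.46) were higher and RKM5 (-0.49) lower (8.59% of all genes called). The window count was 0 without pGPD-SIR3 replicate 1 or either NAM release array, 1 without pGPD-SIR3 replicate 2 and 6 without either WT array. None of the 3 windows was called with either batch as a block. Deposit as a block gave 0.86, 0.23 and 0.28 for RNH203 with the tRNA gene, STM1 with PCD1 and RRT15 with MAS1 (limma adjusted p = 0.0667, 0.239 and 0.125), and slide as a block gave 0.78, 0.20 and 0.39 (limma adjusted p = 0.43, 0.654 and 0.294). Of single probes 1 was higher with deposit as a block, the probe beside the tRNA gene, and 0 with slide as a block, where that probe differed by 0.52 (limma adjusted p = 0.464). No deposit holds both groups, so the deposit shift comes from the 3 groups with 1 array in each, pGPD-SIR2 pGPD-SIR3, pTEF-SIR3 and pADH-SIR3.

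Deletion of DOT1 in the same NAM release regime went with lower Sir3 at the repeats and their left edge. The 4 rDNA probes averaged 1.78 and 2.09 in dot1 NAM release cells, against 3.22 and 4.21 in NAM release cells. The 6 probes between the tRNA gene and the repeats averaged 1.00 and 1.33, against 2.84 and 3.39. The groups did not overlap in either, and the dot1 means were 3.45-fold and 3.85-fold lower. Left of the tRNA gene the dot1 arrays read -0.21 and -0.01, against 0.84 and 1.19 in NAM release cells.

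All 4 rDNA probes tested were lower in dot1 NAM release than in NAM release cells, where 38% of all probes were called and 16.8% called lower. Over the 100 kb 67 of 214 probes were lower and 5 higher, and the 67 became 35 without dot1 replicate 1 or NAM release replicate 2 and 44 without the other array of either group. The 5 became 1 and 2 without dot1 replicates 1 and 2, and 0 and 3 without NAM release replicates 1 and 2. The spacer probe at 460534 to 460588 differed by -1.89 (SE 0.39, limma adjusted p = 0.00185, n = 2 and 2) and the edge probe at 451118 to 451177 by -1.99 (SE 0.23, limma adjusted p = 1.47e-05). The 5S probe differed by -1.36 (limma adjusted p = 0.04), a call that leaving out either dot1 array, either pGPD-SIR3-A2Q array or NAM release replicate 2 removed, the last with a difference of -0.54. That probe read 2.60 on NAM release replicate 1, below every other array of an unmutated SIR3 and DOT1.

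Over the 25 windows 14 were lower and 1 higher in dot1 NAM release minus NAM release, 11 of the lower ones on the left, against 33.3% lower and 29.9% higher among all windows. The median was -0.26 over the 25 and -0.05 over all. The edge window differed by -1.95 (SE 0.24, limma adjusted p = 2.05e-05), that of RNH203 and the tRNA gene by -1.41 (SE 0.18, limma adjusted p = 2.66e-05) and that of PUT1 and DPH6 by -0.85 (SE 0.13, limma adjusted p = 0.000111), and all 3 were called in 24 of 24 alternative settings. The window of the sodium antiporter gene NHA1 and of SLS1 was 0.41 higher, lost after scaling by internal spread and without dot1 replicate 1 or NAM release replicate 1. Without NAM release replicate 2 the left flank had 7 lower windows, and without dot1 replicate 1 the right flank had 1 in place of 3.

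The dot1 arrays also had the widest spread over the rest of the genome (0.541 and 0.552), and 63.2% of all windows were called in this comparison. With each array scaled by its internal spread, the windows of the edge, of RNH203 with the tRNA gene and of PUT1 with DPH6 were still called. How much of the result comes from that spread was not tested. At HMR the dot1 arrays averaged 3.86 ± 0.47 and the NAM release arrays 5.52 ± 1.03 (SD, n = 2 each), and within 10 kb of chromosome ends they averaged 2.37 ± 0.32 and 3.63 ± 0.47. Of the 23 flank genes, 10 were lower and 1 higher (51.5% of all genes called, 24% lower and 27.6% higher). STM1, a ribosome-associated protein, fell by 0.88 (SE 0.18, limma adjusted p = 0.00146), PUT1 by 0.74 and PCD1 by 0.65, and NHA1 was 0.32 higher.

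Against WT, dot1 NAM release cells had 7 of 25 windows lower and 2 higher (65.2% of all windows called, 30.3% lower and 34.9% higher). The edge window (-0.48) and that of the tRNA gene (-0.26) were not among them. PUT1 with DPH6 differed by -0.79 (SE 0.13, limma adjusted p = 0.000183), RMP1 to PEP3 by -0.47 and ACF2 with RMP1 by -0.44, while NHA1 with SLS1 was 0.39 higher and IDP2 with CBF5 0.28 higher. The call at IDP2 with CBF5 was lost with deposit as a block (0.21, limma adjusted p = 0.215), with slide as a block, after scaling by internal spread and without dot1 replicate 2 or WT replicate 2. That at NHA1 with SLS1 was lost after scaling and without dot1 replicate 1 or WT replicate 2, and that at RMP1 to PEP3 with slide as a block (-0.35, limma adjusted p = 0.0631). Without WT replicate 2 the lower count was 4, and without WT replicate 1 the higher count was 4. Of the rDNA probes 3 of 4 were lower (45.7% of all probes called, 18.1% lower), the 5S probe by -2.85 (SE 0.49, limma adjusted p = 0.000338). With deposit as a block 1 was lower and with slide as a block 2. The YLR162W probe right of the repeats read 0.44 and 0.29, against 2.26 and 2.50 in WT cells, a difference of -2.02 (SE 0.19, limma adjusted p = 2.07e-06). Of the flank genes 7 were lower and 2 higher (59% of all genes called), led by PUT1 (-0.78), RKM5 (-0.62) and SPE4, the spermine synthase gene (-0.57).

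Sir3-A2Q, a point mutant at the alanine that follows the initiator methionine and is acetylated in the wild-type protein, gave the lowest rDNA levels of the series. The 4 rDNA probes averaged 0.99 and 1.28 in pGPD-SIR3-A2Q cells, against 4.04 and 3.33 in pGPD-SIR3 and 3.22 and 3.69 in WT cells. No other array lay below 1.78. The mean was 5.85-fold lower than in pGPD-SIR3 and 4.99-fold lower than in WT cells. At the 5S probe and the spacer probe the A2Q arrays averaged 1.55 and 1.76, and within those arrays both probes were still among the highest of all probes, at percentiles of 99.8 to 99.9.

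The 4 rDNA probes tested were all lower in pGPD-SIR3-A2Q than in pGPD-SIR3 cells (9.1% of all probes called, 8.54% lower), from -2.94 at the 5S gene (SE 0.49, limma adjusted p = 0.000689, n = 2 and 2) to -2.47 in the spacer (SE 0.39, limma adjusted p = 0.000499) among the 2 probes inside the array. The edge probe at 451118 to 451177 differed by -2.70 (SE 0.23, limma adjusted p = 7.96e-07). On the slide that holds both A2Q arrays and pGPD-SIR3 replicate 2 the rDNA mean differed by -2.19. Called probes ran over 10 tested probes in a row, from 449416, just right of the tRNA gene, to 460588. No probe lies between 451432 and 459765, and the spacer probes at 459944 to 460003 and 460136 to 460195 were not tested in this fit.

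In windows, pGPD-SIR3-A2Q minus pGPD-SIR3 gave 2 lower and 0 higher of 25 (16.6% of all windows called, 13.8% lower and 2.74% higher). These were the edge window at -2.34 (SE 0.24, limma adjusted p = 1.08e-05), called in 25 of 25 alternative settings, and that of RNH203 and the tRNA gene at -0.66 (SE 0.18, limma adjusted p = 0.0228), called in 20 and lost with slide as a block, among others. Single probes in RRN5, a subunit of an RNA polymerase I factor (0.74), and in DPH6 (0.52) were higher, the first lost with slide as a block. Of the flank genes 1 was called (9.49% of all genes), CBF5, a pseudouridine synthase gene, at 0.44.

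Against WT the 4 rDNA probes were also lower (4.19% of all probes called, 2.94% lower), by -3.26 at the 5S gene (SE 0.49, limma adjusted p = 0.00134) and by -2.66 in the spacer (SE 0.39, limma adjusted p = 0.00131). None of the 4 was called with slide as a block or after each array was divided by its internal spread, and 2 were called without pGPD-SIR3-A2Q replicate 1. No slide holds both groups. The edge window was lower by -1.31 (SE 0.24, limma adjusted p = 0.00742) and CBF5 with RFX1 higher by 0.32, the 2 windows called of 25 (5.87% of all windows). With slide as a block neither was called (-0.78 and 0.23, limma adjusted p = 0.619 and 0.626). The edge window was also lost after scaling by internal spread and without pGPD-SIR3-A2Q replicate 1 or WT replicate 2, and CBF5 with RFX1 was lost in 7 of 25 settings in all. Without WT replicate 1 the windows called higher became 4. No flank gene was called by limma (1.59% of all genes), and 5 had an unadjusted p under 0.05. Between the tRNA gene and the repeats the A2Q arrays read 0.60 and 1.14, both under the WT level of 1.61. At HMR they averaged 1.46 ± 0.08, against 7.24 ± 0.31 in WT cells, and within 10 kb of chromosome ends 0.29 ± 0.04, against 2.35 ± 0.05.

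**Figure D4:**
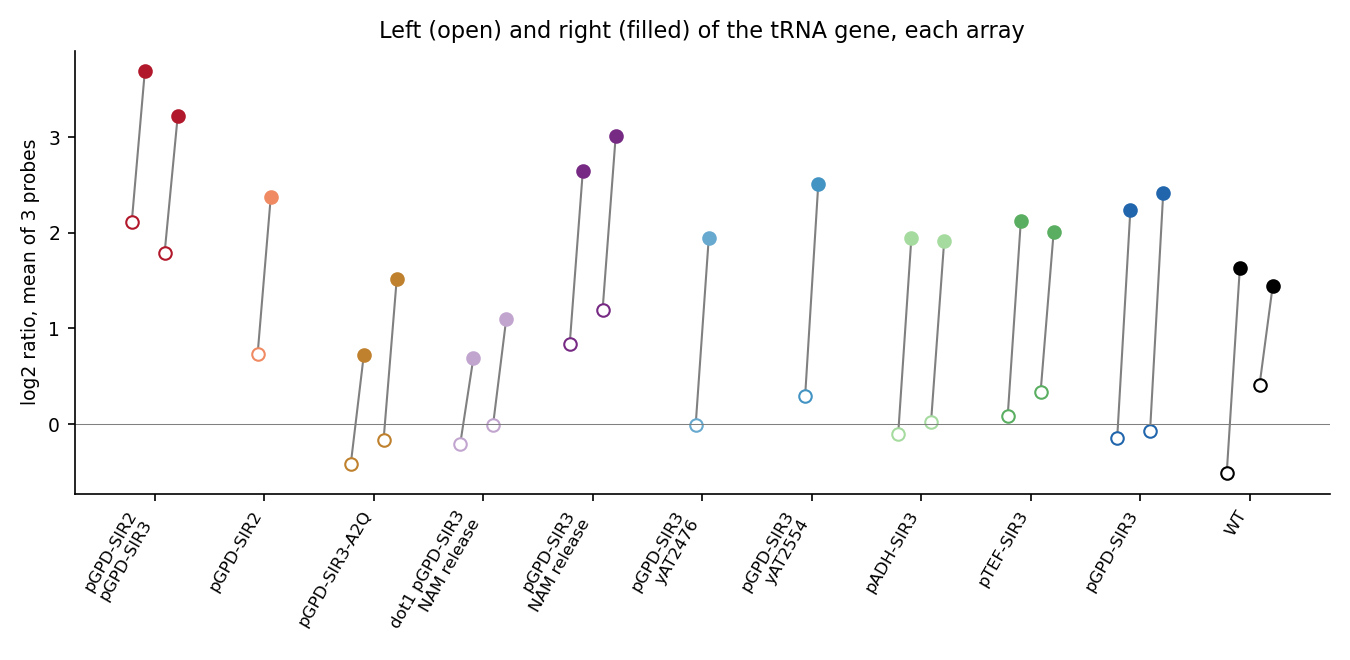
Mean centred log2 ratio per array of 3 probes left of the tRNA gene (open points, 447813 to 448594) and of 3 probes right of it (filled points, 449416 to 449828), for all 19 arrays by group with WT last. The filled point lies above the open one on every array, also in pGPD-SIR2 pGPD-SIR3 cells, where both are high.

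Levels differed between the sides of the tRNA gene in every group. Over 3 probes on each side of it, the level on the side of the repeats was higher on all 19 arrays. This difference is called the step here. The left probes end at 448594 and the right ones start at 449416, so where between them the level changed is not resolved. Whether the step exceeds the general decline away from the repeats was not tested. The step was 1.59 and 1.44 log2 units in pGPD-SIR2 pGPD-SIR3, 1.82 and 1.82 in NAM release, 2.38 and 2.49 in pGPD-SIR3 and 0.90 and 1.10 in dot1 NAM release cells, against 2.15 and 1.03 in WT cells. In pGPD-SIR3-A2Q cells, with the lowest rDNA levels, it was 1.15 and 1.68, within the range of the WT arrays. The WT arrays differed from each other in the step by more than the NAM release arrays did, mainly through the left probes (-0.52 and 0.41). In pGPD-SIR2 pGPD-SIR3 cells the right side read 3.46 ± 0.33 and the left side 1.95 ± 0.23 (SD, n = 2), so the step persisted at a raised level on both sides.

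**Figure D5:**
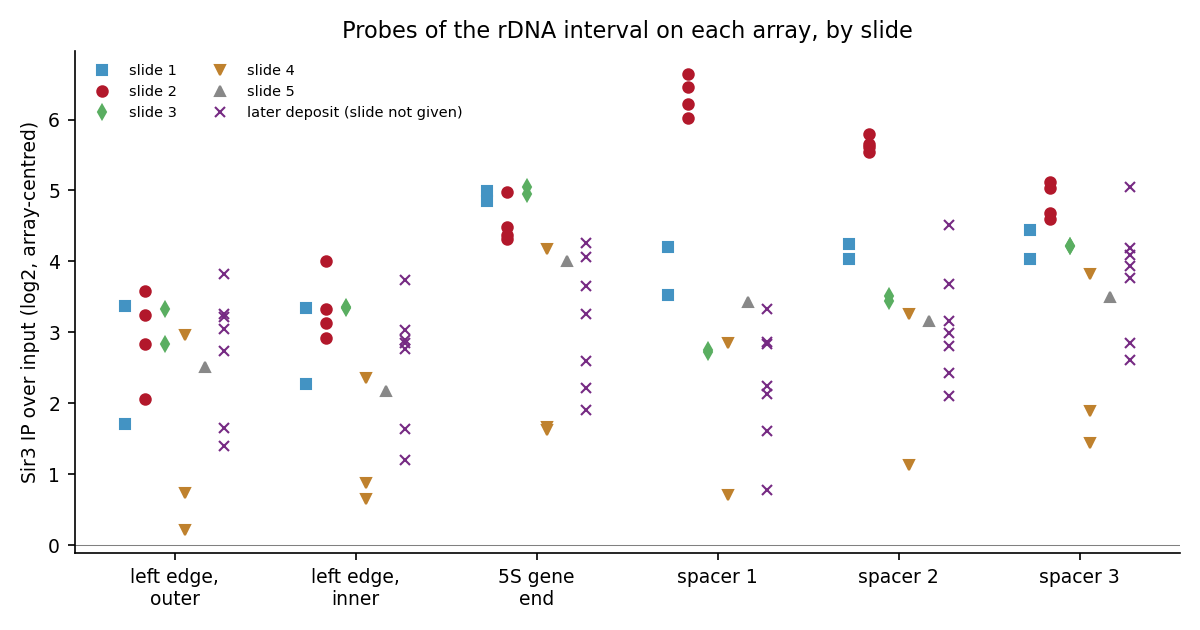
Centred log2 ratio (vertical axis) of each of the 6 rDNA probes (horizontal axis) on each array. Markers show the slide inferred from the file names, with the later deposit as a group of its own. At the spacer probes 459944 to 460003 and 460136 to 460195 the 4 arrays of slide 2 read 6.02 to 6.65 and 5.54 to 5.79, above all other arrays.

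The 2 spacer probes that were missing on 1 array followed the inferred slide. The probe at 459944 to 460003 read 6.02 to 6.65 on the 4 arrays of slide 2 (WT replicate 2, pTEF-SIR3 replicate 1, yAT2554 and pGPD-SIR2 pGPD-SIR3 replicate 1) and 0.71 to 4.21 on the other 14. The probe at 460136 to 460195 read 5.54 to 5.79 on these 4 and 1.13 to 4.52 on the others. The remaining 4 rDNA probes overlapped between slide 2 and the rest. Both probes lack a value on A2Q replicate 2 and thus do not enter the rDNA mean. With all measured rDNA probes the differences from WT were -0.05 in pGPD-SIR2 pGPD-SIR3, -0.31 in pGPD-SIR3, -0.15 in pTEF-SIR3 and -0.52 in pADH-SIR3 cells, each of the opposite sign to the value from the 4 probes.

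Whether the effect of SIR3 overexpression differed with SIR2 overexpressed was tested as an interaction, (pGPD-SIR2 pGPD-SIR3 minus pGPD-SIR2) minus (pGPD-SIR3 minus WT), a contrast added after seeing the data. It was above 0 in 3 of 25 windows (6.29% of all windows called), 6 of 214 probes (3.51% of all probes, 27 without WT replicate 1 and 1 without pGPD-SIR3 replicate 1) and 1 of 23 genes (2.85% of all genes), PUT1, at 1.07 (limma adjusted p = 0.0149). At the probe beside the tRNA gene (448536 to 448594) it was 1.07 and not called (limma adjusted p = 0.112). The window count was 0 without pGPD-SIR3 replicate 1 and 0 with slide as a block, 2 with deposit as a block, and it was 1 in most other fits that left out an array.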

How the data were processed

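Sir3 ChIP-chip was measured on 19 arrays. The authors deposited per probe a ratio of both channels, a rescaled ratio, both with a few values below 0 on some arrays, and a Z score, per the file headers; neither the genome build nor the normalization behind the ratio is stated in the labels. The other deposited values served only to check the ratio: the series table equals the rescaled ratio in 787683 of 787683 values. Each ratio was converted to log2 (values at or below 0 as missing) and centred on its array's median over the 41480 chromosomal probes. Probes with a value on all arrays were averaged in 2.5 kb windows of at least 3 probes. limma 3.58.1 (R 4.3.3) was fitted to all windows, probes and genes, with 1 mean per group and Benjamini-Hochberg adjustment within each comparison. Tables and figures used Python 3.11.15. The scripts were tested on simulated data. The number of arrays limits the precision.

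Groups came from the labels, and slides were inferred from numbers in the file names. Genes named are those of the rDNA unit and its borders, and per comparison those of the 3 largest rises and falls among windows and the 2 largest among probes. The members and lists were chosen with earlier results of these data known. Gene names follow R64, whose coordinates are not printed, and 23 flank genes were tested. The replicate numbers were not used to pair samples. Over 10 pairs of groups the deviations of same-numbered arrays correlated from -0.184 to 0.223, 1 over 0.1. That highest value was between NAM release and dot1 NAM release, which share a deposit and are compared directly. Whether their arrays were paired was not settled by these correlations. Alternatives included window size, centring, scaling, slide and deposit as blocks and leaving out each array; the gene fit, probe-level repeats, segments cut at the tRNA gene and the interaction were added after seeing the data.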

Additional observations from a re-analysis of the deposited data

Results flagged for a closer look

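The effect of SIR3 overexpression, as a log2 difference, was compared with and without SIR2 overexpression, as pGPD-SIR2 pGPD-SIR3 minus pGPD-SIR2 set against pGPD-SIR3 minus WT, and differed in 3 of 25 windows (6.29% of all windows). The difference between the effects was 0.98 at PUT1 and DPH6 (425000 to 427500, SE 0.20, limma adjusted p = 0.0175), 0.64 at MAS1, SHH4 and PUS5 (492500 to 495000, SE 0.17, limma adjusted p = 0.0431) and 0.60 at UPS2, APS1, DPH5 and TAG1 (500000 to 502500, SE 0.15, limma adjusted p = 0.0394). At the probe in YLR157W-E (481877 to 481930) it was 2.82 (SE 0.52, limma adjusted p = 0.0127), the highest of the 6 probes of 214 called (3.51% of all probes). No window was called with slide as a block, in the first deposit alone or without pGPD-SIR3 replicate 1. The call at PUT1 and DPH6 was lost in 3 of 25 alternative settings. Those at MAS1, SHH4 and PUS5 and at UPS2, APS1, DPH5 and TAG1 were lost in most, 17 and 15 of 25. pGPD-SIR2 has 1 array, and RDN1::ADE2 is in both SIR2-overexpressing strains, so its part cannot be told apart from that of SIR2.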

How the results depend on the processing

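The number of windows called in the 100 kb moved by over 1.5 times with window size and batch. pGPD-SIR2 pGPD-SIR3 minus WT gave 9 with 5 kb and 25 with 1 kb windows and 8 in the first deposit; minus pGPD-SIR2 it gave 6 with 5 kb, 2 with slide as a block and 5 in the first deposit; minus pGPD-SIR3 it gave 16 with 1 kb and 4 with slide as a block. NAM release minus WT gave 5 with 5 kb, 17 with 1 kb and 4 with slide as a block, and dot1 minus NAM release gave 8 and 24 lower windows with 5 and 1 kb. Leaving out each array gave 9 to 15, 7 to 13, 6 to 11, 4 to 9 and 10 to 16 windows in these 5 comparisons. With the replicate number as a block the counts were 14, 10, 9, 8 and 15, and no rDNA count changed. The rDNA probes lower in pGPD-SIR3-A2Q than in WT were 0 of 4 after scaling by internal spread or with slide as a block, and 2 to 4 over left-out arrays; the ranges were 4 to 4 for A2Q minus pGPD-SIR3 and 3 to 4 for dot1 minus NAM release.

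Differences of the rDNA mean from WT turned negative when all measured rDNA probes were used: -0.051 (pGPD-SIR2 pGPD-SIR3), -0.31 (pGPD-SIR3), -0.15 (pTEF-SIR3) and -0.52 (pADH-SIR3). Scaling by internal spread gave 0.81, 0.47 and 1.19 for pGPD-SIR3, pTEF-SIR3 and pADH-SIR3, and slide as a block gave 0.82 for pGPD-SIR3. Leaving out arrays gave -0.082 to 0.80, -0.13 to 0.58, -0.18 to 0.30 and -0.058 to 0.42 for the same 4 groups, so none had a settled sign; single reversals were also -0.01 (pGPD-SIR3 without WT replicate 1), -0.15 (pTEF-SIR3 without its replicate 1) and -0.02 (pADH-SIR3 without its replicate 1). A2Q minus WT was -1.84 scaled, -2.84 with all probes, -1.37 with slide as a block and -2.56 to -2.08 over left-out arrays. A2Q minus pGPD-SIR3 ranged from -2.90 to -2.19 and dot1 minus NAM release from -2.28 to -1.29, with -3.10 after scaling. The cause was not tested. The rDNA rests on 6 probes, and groups on 1 or 2 arrays.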
